A study of Danio rerio with 12 samples.

Results

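Transcript abundance in the testis of adult zebrafish was compared with that in the female body, the fish that remained after the ovaries had been dissected out. Of the 12 arrays of the study, 6 enter the comparison, 3 hybridized with testis RNA and 3 with female body RNA, one fish per array, and they were chosen by label alone. The other 6 arrays (3 of male body without testes and 3 of ovary) supply side values. All fish were wild type of the AB strain and 4 to 12 months old. They had spawned, and the sexes had then been kept apart for 5 days before dissection. No group carried a transgene, mutation or drug. The fish were separate individuals but full siblings, so the p-values measure the spread between these individuals only. Each array is an Affymetrix Zebrafish Genome array, on which a probe set is a group of short oligonucleotides for one transcript, and its signal is a linear brightness scaled to the same trimmed mean on every array. A total of 14514 of 15502 probe sets exceeded a signal of 32 on at least 1 of the 6 arrays and were tested, and the other 988 were at or below it on all 6. Signals below 32 were set to 32, the floor, before log2 transformation.

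A testis holds germ cells at every stage from stem cell to sperm, together with Sertoli cells, which nurse them, and Leydig cells, which make androgens. Spermatocytes pair and recombine their chromosomes on a protein scaffold, the synaptonemal complex, and spermatids then grow a flagellum around an axoneme, a bundle of microtubules moved by dynein. In a comparison with the female body, yolk and egg transcripts matter. Yolk protein is made in the liver of egg-laying females, and egg coat proteins and maternal messages are made in oocytes. Where the female body sample holds germline transcripts, a gene used by both sexes can be bright on both sides. Because these are bulk samples, more cells of a type and more RNA per cell cannot be told apart.

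Transcripts bright in ovary were also bright in the female body although the ovaries had been removed. Their source in the female body was not tested. For the 16 egg coat genes, the signal of female body arrays 1, 2 and 3 was a median of 78.5, 47.8 and 36.3% of the ovary mean. For 46 oocyte and maternal genes the same medians were 63.6, 38.4 and 26.2%. Female body array 1 thus held the most ovary transcripts and array 3 the fewest, and the summed signal of the muscle list ran the other way, at 250405, 391070 and 533482. The testis carried its defining markers: ddx4, sycp3, sycp1, tekt1, amh, dmrt1 and cyp11c1 lay at 1405 or above on all 3 testis arrays. Genes of the pancreas and liver lists also had signal in testis, above that in ovary. The pancreas list summed to 40156 on testis array 1 and to 15092 and 13229 on arrays 2 and 3, against 86909 to 100055 in female body and 1403 to 2096 in ovary. The liver list summed to 24802 to 47476 in testis, 249440 to 284006 in female body and 2260 to 2345 in ovary. Whether the testis signal of these lists came from other organs or from testis cells was not tested. The part of these transcripts in the results below was not tested either. Replicates correlated at 0.964 to 0.969 (Pearson r of log2 signals across probe sets) in testis and 0.922 to 0.968 in female body, the lowest between arrays 1 and 3. The median SD of a probe set was 0.25 on the log2 scale in testis and 0.37 in female body.

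The testis held more transcripts above the female body than below it. In a limma fit with Benjamini-Hochberg adjustment, 3578 probe sets were higher in testis, which is 24.7% of those tested, and 2543 were lower, which is 17.5%. The 2 directions together came to 42.2%, and the remaining 8393 probe sets passed in neither. Without regard to a test, the arrays of the 2 groups did not overlap, with testis above, in 30.4% of probe sets and, with testis below, in 22.2%. These are the background against which non-overlap of a named gene is read. The called shares, 24.7% higher and 17.5% lower, are the background for every list count below. Over the 8578 genes with a probe set of their own name, 2333 were higher and 1638 lower. The unit of the lists below is the gene, not the probe set. The lists were chosen with earlier results of these data known, so their counts are descriptions and not tests. The median log2 difference over all probe sets tested was 0.09. It was -0.04 with each array centred on its median, where 3150 probe sets were called higher and 2975 lower, and 0.06 after quantile normalization. The largest differences lay on the female side: 149 probe sets were at least 64-fold lower in testis and 59 at least 64-fold higher. At least 4-fold there were 1031 higher and 1102 lower. Of the probe sets higher in testis, 193 (5.39%) had all 3 female body arrays at or below the floor, 391 had 1 or 2 arrays there and 2994 had none. Many testis genes therefore stayed above a female body that also expressed them: 301 of those at least 4-fold higher had a female body mean of 200 or more. Ovary signal lay at the floor on all 3 ovary arrays for 15.6% of the probe sets higher in testis, 27.7% of those lower and 24.9% of all tested. In the side comparisons, 29.2% of 14965 probe sets were higher in testis than in male body and 29.9% lower. Against ovary, 42.5% of 13965 were higher in testis and 24.4% lower. The ovary arrays had lower median signals, at 103 to 128.7, than the testis arrays, at 200 to 208.4. They also had more probe sets at or below 32 (33 to 35.7%, against 14.1 to 17.9%). The part of this in the values set against ovary was not tested.

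**Figure D1:**
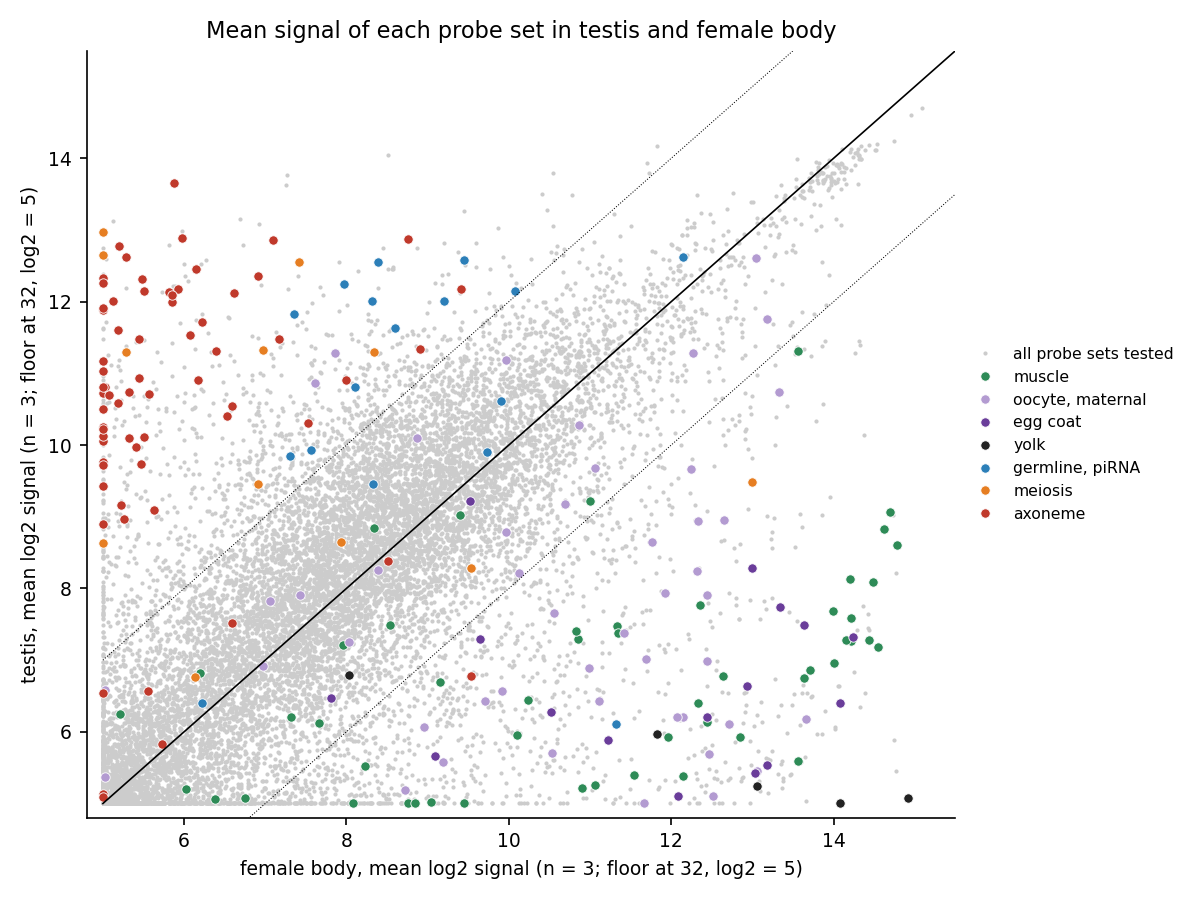
Mean log2 signal of each of the 14514 probe sets tested in female body (x axis) and testis (y axis), 3 arrays each, with values below 32 set to 32 (log2 of 5); coloured points are genes of 7 lists, the solid line marks equal signal and the dotted lines 4-fold. Many axoneme and meiosis genes lie toward the left edge, where female body signal is at or near the floor, germline genes lie further right, and egg coat, yolk and muscle genes lie at the lower right.

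Axoneme genes stood furthest above the female body. Of 67 listed genes of the axoneme, its dynein arms, radial spokes and assembly factors, 61 were higher in testis, 1 was lower and 5 were not called, against 24.7% higher among all probe sets, with a median log2 difference of 5.25 (0.09 over all). For 18 of the 61, all 3 female body arrays were at the floor. The list summed to 159830 to 198135 on the testis arrays and to 5690 to 6578 on the female body arrays, so the ranges were far apart. It summed to 5238 to 5636 in male body, and 63 members were higher in testis than in male body. Against ovary, 61 were higher.

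The brightest member was tuba7l, an alpha tubulin, with testis signals of 12091, 13690 and 12854 and female body signals of 46.1, 55.3 and 78.7. This is a 220-fold difference (log2 7.78, SE 0.23, adjusted p 1.4e-06 in limma). For tekt1, a tektin that forms filaments along the microtubule doublets, testis signals were 7623, 7269 and 6249 and female body signals 2.4, 26.6 and 48.1. The groups did not overlap in either gene, and 2 of the 3 female body values of tekt1 were below the floor (log2 7.58, SE 0.24, adjusted p 1.5e-06 in limma). The dynein arm intermediate chains dnai1.1 and dnai2a had no female body value above 20.9 and 8.1. On the testis arrays dnai1.1 read 4091, 4667 and 2785, at least 118-fold higher, and dnai2a read 3024, 2232 and 1846, at least 72.5-fold higher. The ciliary proteins cfap299 (at least 160-fold) and efhc2 (at least 153-fold) and the dynein light chain dynlt5 (at least 121-fold) belonged to the same class, with female body at the floor throughout. The radial spoke gene rsph9, the central pair gene spag6 and the dynein assembly gene daw1 differed by 6.63, 6.33 and 6.82 on the log2 scale. A microtubule inner protein gene, cimip2b, was less even within the testis: its arrays read 8898, 8011 and 3575, against 38.6, 35.7 and 42.7 in female body (log2 7.35, SE 0.36).

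Exceptions within the axoneme list were few. Signals of spag1a, whose product helps to assemble dynein arms, were 73.1, 162.9 and 110.6 in testis and 518, 621.6 and 1249 in female body, so that it was 6.73-fold lower in testis (adjusted p 0.0015 in limma). Its duplicate spag1b ran the opposite way, at 1419, 1141 and 830.3 in testis against 65.6, 29 and 44.8 (log2 4.60, SE 0.36, adjusted p 4.9e-05). The 5 members not called were spata18, septin4a, cfap100, dnah9 and dnali1, and the last 3 had testis means of 29.2, 32.5 and 57.6, close to the floor.

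Genes of ciliary transport were higher without exception. These proteins carry building material along a growing cilium or flagellum. All 21 listed genes tested were higher in testis, with a median log2 difference of 3.58. The 2 with the largest differences were ift46 and dync2i2, a part of the dynein that carries particles back to the cell body. Signals of dync2i2 were 2093, 1913 and 1984 in testis and 85.7, 53.5 and 42.5 in female body (34.4-fold). The transport particle gene ift46 read 4803, 5188 and 4431 in testis and 107.2, 156.8 and 111.7 in female body (38.9-fold, adjusted p 3.3e-06 in limma), and no female body array came near a testis array. Differences were smaller for bbs5, a part of the BBSome cargo adaptor (log2 1.59, SE 0.34), and could only be bounded for kifap3b, an accessory subunit of the kinesin motor, with female body at the floor and testis signals of 74.1 to 89.8 (at least 2.55-fold). The transcription factor rfx2, known in vertebrates as a regulator of ciliary genes, had means of 1162 in testis and 257 in female body (log2 2.28, SE 0.34). Unlike the rest, ift57 depended on which body was the partner. It read 2553, 2920 and 1974 in testis and 149.4, 73.3 and 76.8 in female body, a 26-fold difference. In male body it read 7501, 6688 and 37.1, so that 2 of the 3 male bodies lay above every testis array.

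**Figure D2:**
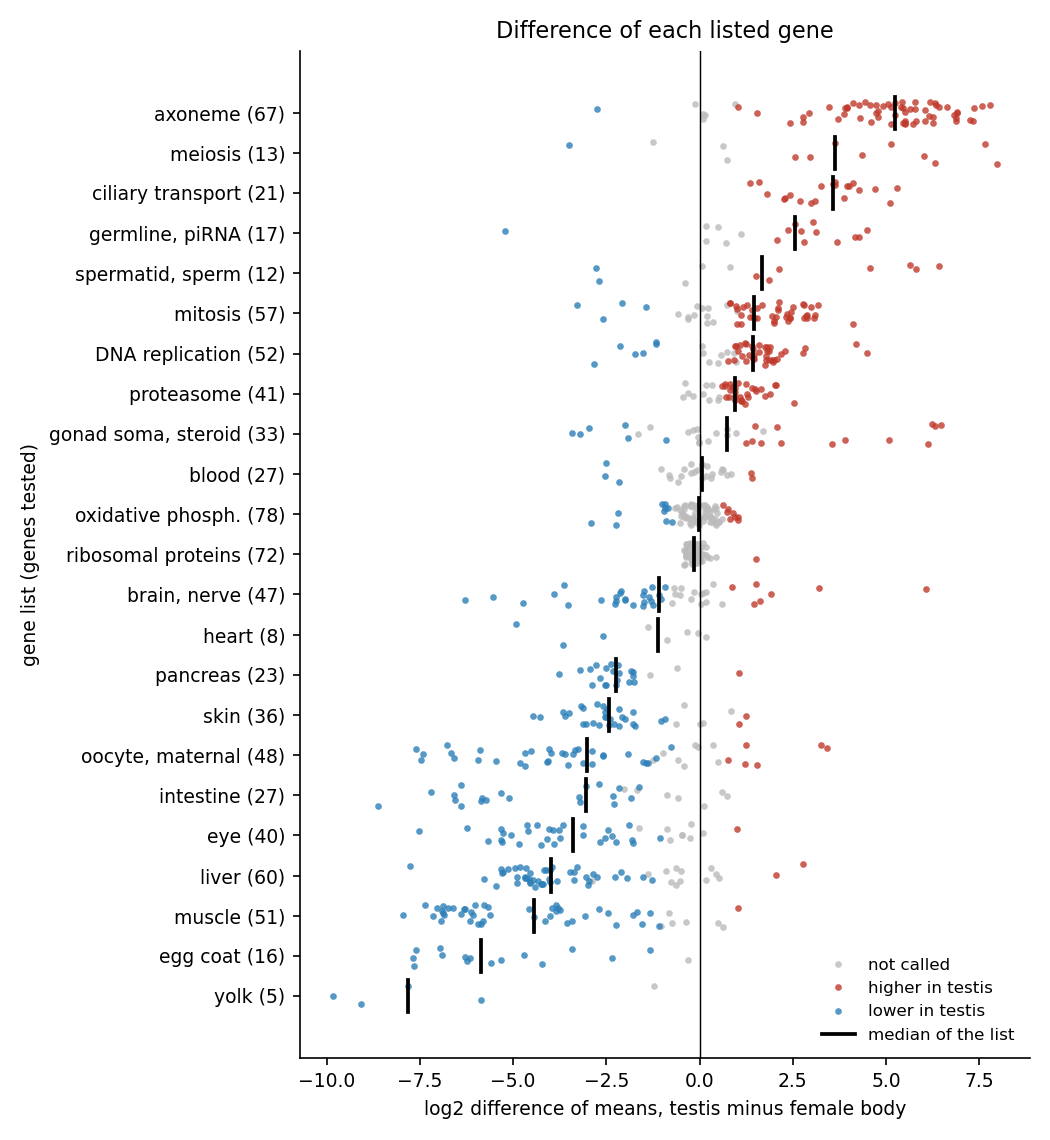
Log2 difference, testis minus female body, for each tested gene of 23 lists (points; y axis, with the number of genes tested; vertical scatter within a row has no meaning), coloured by the limma call at an adjusted p under 0.05; black bars are list medians. Medians run from 5.25 for axoneme genes to -7.82 for yolk genes, and the ribosomal protein genes sit around 0.

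Genes of the meiosis list ranged from the floor to bright signals in the female body. Of 13 genes listed, 9 were higher in testis, 1 was lower and 3 were not called, with a median of 3.64. The chromosome axis gene hormad1 read 8142, 7056 and 8974 in testis and 32.4, 2.6 and 5.8 in female body, a 250-fold difference with the last 2 set to the floor (log2 7.96, SE 0.20, adjusted p 1.3e-06 in limma). Testis signals of sycp3, a lateral element of the synaptonemal complex, were 7090, 4958 and 7622, with 2.1, 5.3 and 4.5 in female body, at least 201-fold. Both genes were near the floor in ovary as well, with means of 38.4 and 16. The telomere attachment gene terb1 and the central element gene syce2 differed by 6.01 (SE 0.39) and 6.32 (SE 0.27).

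Other members carried a visible female signal and still stood higher in testis. The transverse filament gene sycp1 read 5777, 6975 and 5390 in testis, 207.7, 107.6 and 223.6 in female body and a mean of 442 in ovary (log2 5.14, SE 0.30, adjusted p 1.2e-05 in limma). For the meiotic cohesin rad21l1 the means were 2585, 141 and 486 (log2 4.35, SE 0.41), and for trip13, which strips axis proteins from paired chromosomes, 2529, 349 and 1452 (log2 2.96, SE 0.33). The one member that fell was ccna1, a cyclin, at 904.7, 684 and 592.8 in testis against 10053, 8347 and 6529 in female body and a mean of 12009 in ovary (log2 -3.51, SE 0.24, adjusted p 2.3e-05). In male body ccna1 did not exceed 16. The genes prdm9, brca2 and fbxo43 were not called (log2 0.72, 0.63 and -1.25). Against ovary, 9 of the 13 were higher in testis and 3 lower.

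Germline genes shared by both sexes stayed high in testis, with smaller margins than against male body. The list holds genes of the piRNA pathway, in which small RNAs guide Piwi proteins against transposons, and RNA-binding regulators of germ cells. Of 17 genes, 11 were higher in testis than in female body, 1 was lower and 5 were not called (median 2.55). Against male body 16 were higher and 1 lower (median 6.03). Against ovary 11 were higher and 5 lower (median 0.85). These comparisons share the testis arrays. The list summed to 48189 to 53199 in testis, 24089, 12072 and 9227 on female body arrays 1, 2 and 3, and 1037 to 1123 in male body. Without female body array 1, 14 of the 17 were called higher.

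The Piwi gene piwil1 read 5034, 3751 and 6037 in testis and 703.4, 167.8 and 132.8 in female body (19.4-fold, SE 0.58 on the log2 scale, adjusted p 7.8e-04 in limma). For ddx4, the vasa helicase of germ cells, testis signals were 6990, 5647 and 5517 and female body signals 691, 200.8 and 273 (17.9-fold, SE 0.42 on the log2 scale, adjusted p 1.8e-04). In both genes the lowest testis array lay more than 4-fold above the highest female body array, which was array 1. The second Piwi gene, piwil2, was steadier in female body, at 357.2, 336.7 and 268.7, against 5046, 3739 and 3719 in testis (12.9-fold). The largest difference in the list belonged to pld6, a mitochondrial factor of piRNA formation, at 4337, 3004 and 3735 against 361.6, 137.9 and 86.9 (22.4-fold). Tudor domain genes, whose products scaffold the pathway, were higher for tdrd7a (log2 3.13, SE 0.41), tdrd6a (2.81, SE 0.37) and tdrd15 (2.37, SE 0.43). The translation regulator dazl read 4307, 4469 and 4882 in testis and 1808, 1150 and 597.7 in female body, a 4.23-fold difference (adjusted p 0.0028 in limma).

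The other 5 members were not called. For gtsf1, a zinc finger partner of Piwi proteins, testis signals of 6490, 7863 and 4915 overlapped female body signals of 8188, 3254 and 3447 (log2 0.48, SE 0.37, adjusted p 0.34 in limma). Its male body signals were 8.6, 32.7 and 6.4. Female body array 1 was above all 3 testis arrays. The same overlap held for asz1 (log2 0.71, SE 0.34) and dnd1 (0.17, SE 0.48), while tdrd5, at 1.12 (SE 0.40), missed the threshold with an adjusted p of 0.053 and nanos1 was low in both groups (means of 84.9 and 76). The RNA regulator nanos3, needed in zebrafish to keep up egg production, was the single gene lower in testis: 68.1, 76.1 and 62.5 against 3705, 2768 and 1618 in female body and a mean of 6001 in ovary (37.1-fold, adjusted p 1.6e-05).

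**Figure D3:**
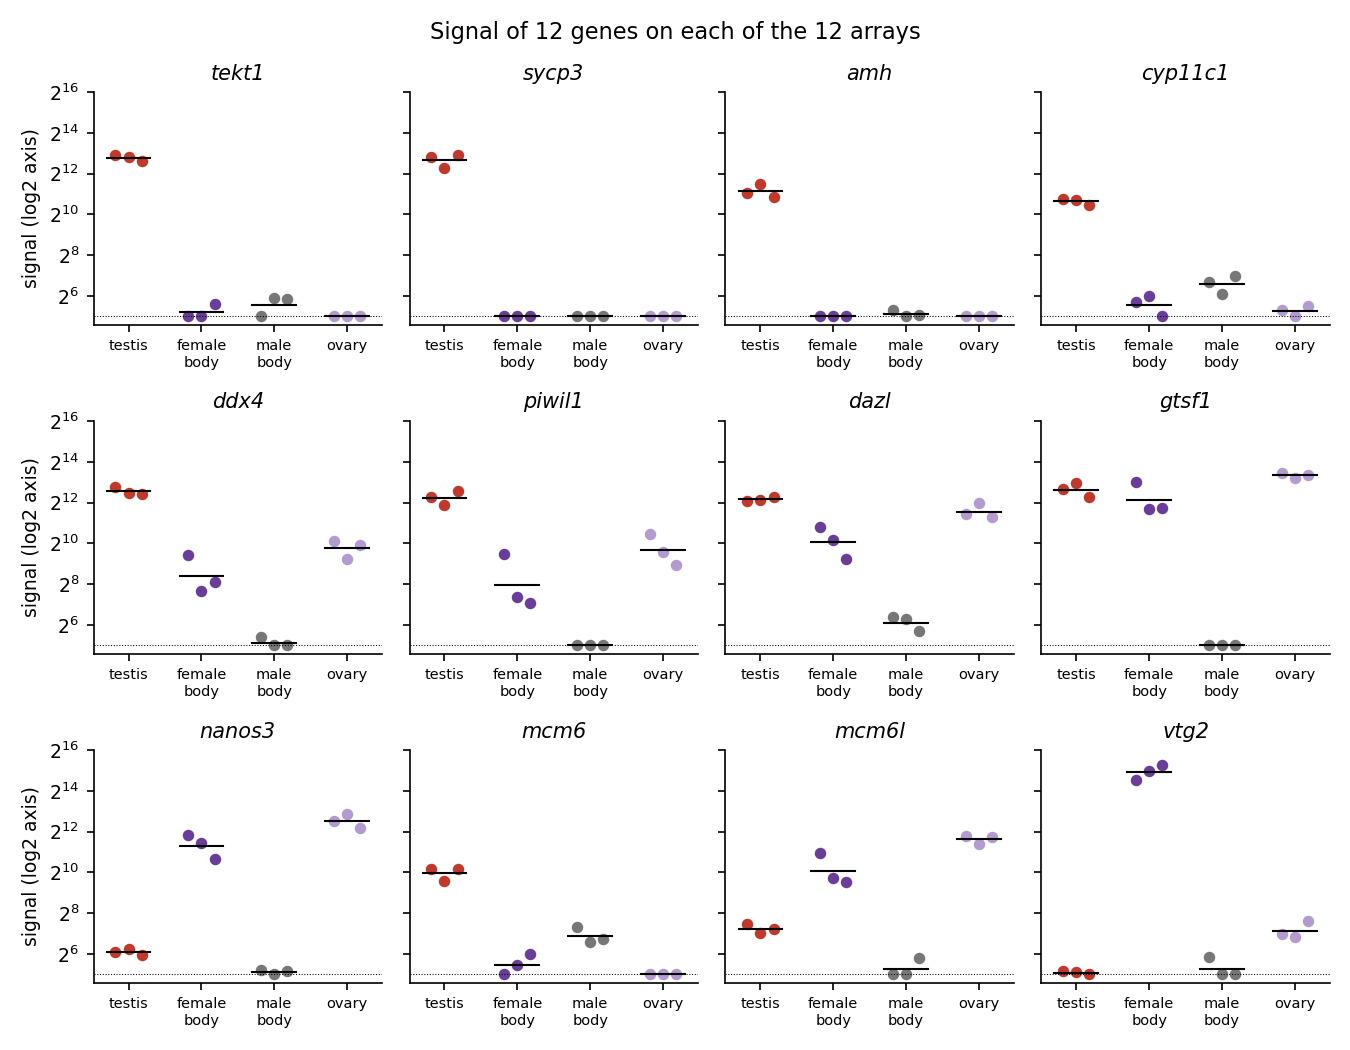
Signal of 12 genes (log2 axis, values below 32 drawn at 32, dotted line) on the 3 arrays of testis, female body, male body and ovary; points are arrays and bars are means of log2 signal. Female body is at or near the floor for tekt1, sycp3 and amh, between testis and male body for ddx4, piwil1 and dazl, overlaps testis for gtsf1, and lies above testis for nanos3, mcm6l and vtg2.

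Most listed genes of late spermatogenesis and sperm were higher in testis. Of 12 listed, 7 were higher in testis, 2 were lower and 3 were not called (median 1.68). The background shares were 24.7% higher and 17.5% lower, so 2 lower genes are not read as a feature of this list. The transcription factor cremb read 4243, 4756 and 4518 in testis and 37.1, 47.9 and 84.2 in female body (84.8-fold, adjusted p 5.5e-06 in limma). The sperm membrane genes dcst1 and dcst2, required for fertilization in mouse, had female body at the floor throughout and were at least 56.1-fold and 49.4-fold higher. The chaperone clgn read 2995, 2946 and 2693 against 142.7, 105.2 and 117.1 (23.8-fold). The bromodomain gene brdt, which reads acetylated histones in male germ cells of mouse, was higher by less, at 1249, 1038 and 987.1 against 388.4, 193.8 and 200 (4.40-fold), and the lowest of its 3 probe sets differed by -0.07 on the log2 scale. The mitochondrial creatine kinase ckmt1 and the cytosolic ckbb were the 2 that fell (log2 -2.79 and -2.71). Their male body means were 2195 and 6537, above their testis means of 257 and 1192. Both energy genes below were not called: gapdhs, a glycolytic enzyme, differed by 0.82 (SE 0.29, adjusted p 0.053) and the adenylate kinase ak1 by -0.40 (SE 0.30), with muscle-rich male body above both groups for ak1 at a mean of 18112.

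Somatic genes of the gonad were mixed, with a few members far above the female body. Of the 33 tested members of the gonad soma and steroid list (of 35), 13 were higher, 6 lower and 14 not called, with a median of 0.73, against 24.7% higher and 17.5% lower among all probe sets. The Sertoli cell hormone amh read 2111, 2897 and 1856 in testis and no more than 9.2 in female body, at least 70.2-fold. Testis signals of gsdf, another Sertoli cell factor, were 3914, 6609 and 8007, against 75.8, 61.4 and 86.7 (80.1-fold), and those of dmrt1, a regulator of male fate, 5095, 4512 and 5395, against 81.2, 99 and 36.5 (75-fold). No female body array came within 10-fold of a testis array for any of these genes. The retinoic acid enzyme aldh1a2 and the tight junction gene cldn11a differed by 3.89 (SE 0.42) and 3.56 (SE 0.35).

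Genes of steroid synthesis went in both directions. The cholesterol carrier star read 9180, 9463 and 8716 in testis and 73.6, 265.1 and 56.7 in female body (88.1-fold, adjusted p 5.7e-05 in limma). The gene for 11-beta-hydroxylase, cyp11c1, on the route to the fish androgen 11-ketotestosterone, read 1703, 1690 and 1405 against 51.5, 63.5 and 19.5 (33.8-fold), and hsd11b2, which acts after it, 4205, 7052 and 10638 against 918.1, 1753 and 2708 (4.17-fold). Genes bright in ovary varied. For cyp17a1 testis signals of 2220, 3544 and 4489 overlapped female body signals of 2336, 1265 and 880 (log2 1.25, SE 0.39, adjusted p 0.035), and the call was lost in 8 of 19 other settings. A second probe set of cyp17a1 was also called higher, by 2.91 on the log2 scale. The side-chain cleavage gene cyp11a1.1 was lower in testis, at 110.4, 107.1 and 72.7 against 1010, 964.3 and 690.8, with an ovary mean of 2775 (9.22-fold). The dehydrogenase hsd3b2 was lower as well (log2 -2.98, SE 0.47), with an ovary mean of 1219. No other cyp11a or hsd3b gene was listed, so the values speak for these genes and not for their steps. The other 4 that fell, srd5a2a, sox9b, hsd20b2 and gata6, had ovary means of 68.1 or less, and the call of gata6 was lost in 10 of 18 other settings.

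Genes of dividing cells were mostly higher in testis than in female body, which also held them, but not mostly higher than in ovary. Of 52 DNA replication genes, 38 were higher, 6 lower and 8 not called (median 1.42). Of 57 mitosis genes, 41 were higher, 4 lower and 12 not called (median 1.45). Against ovary, 15 replication genes were higher in testis and 18 lower (median -0.01). For mitosis genes the counts against ovary were 22 higher and 21 lower (median -0.04). Against male body, all 52 replication genes and 56 mitosis genes were higher in testis. The sliding clamp gene pcna read 9291, 7528 and 10545 in testis and 5515, 4869 and 3875 in female body, a 1.92-fold difference (adjusted p 0.009 in limma). The helicase subunit gene mcm3 read 2938, 2213 and 2290 against 106.8, 111.7 and 204.4, with an ovary mean of 30.6 (18.3-fold). The clamp loader subunit gene rfc5 was 7.10-fold higher, at 1979, 2153 and 2509 against 430.9, 303.7 and 228. Both genes were far from overlap, unlike pcna, whose groups lay close. Of the mitosis genes, prc1b, which bundles spindle microtubules, had the largest difference, at 2146, 3141 and 3123 against 245.5, 132.8 and 129.3 (17.1-fold). The central spindle gene racgap1 was 9.02-fold higher, at 2869, 3106 and 2198 against 355.7, 311 and 241.5. The kinase gene cdk1, which drives entry into mitosis, was 3.83-fold higher. Cyclin B transcripts went both ways: ccnb3 was higher (log2 2.80, SE 0.37), while ccnb1, at 3350, 3408 and 3597 against 11728, 9388 and 7307, and ccnb2 (log2 -2.58, SE 0.25) were lower, as was the cyclin gene ccne1 (log2 -2.08, SE 0.28). The replication genes that were lower (mcm6l, gmnn, orc1, orc6, cdt1 and dnmt1) had ovary means of 3172 to 7105, above their female body means. Over the whole replication list, the median signal was also higher in ovary, at 1375.4 to 1390.5, than in female body, at 374.2 to 697.4. The background share was 17.5% lower, so the lower genes are not read as a feature of the 2 lists. The mitotic gene kif20a is among the 4 counted as lower, but its probe sets disagree in sign (log2 -3.29 and 2.14, both called).

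Differences in the dividing-cell lists were smallest against female body array 1. The median over replication genes of the testis mean minus a single female body array was 0.74, 1.56 and 1.77 for arrays 1, 2 and 3, and over mitosis genes 0.79, 1.69 and 1.90. Germline genes gave 1.91, 2.99 and 2.93. Axoneme genes gave 5.18, 5.32 and 5.09, and meiosis genes 3.53, 3.64 and 3.64. For axoneme genes the floor limits any shift between arrays: 30, 27 and 23 of 67 were at or below 32 on female body arrays 1, 2 and 3. The meiosis list did vary in signal, with medians of 148.5, 107.6 and 67 on these arrays. Without array 1, 11 of its 13 genes were called higher. Array 1 is the array with the highest egg coat and oocyte signal, and the part of that signal in the smaller differences was not tested. Without array 1, 43 replication genes and 43 mitosis genes were called higher.

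**Figure D4:**
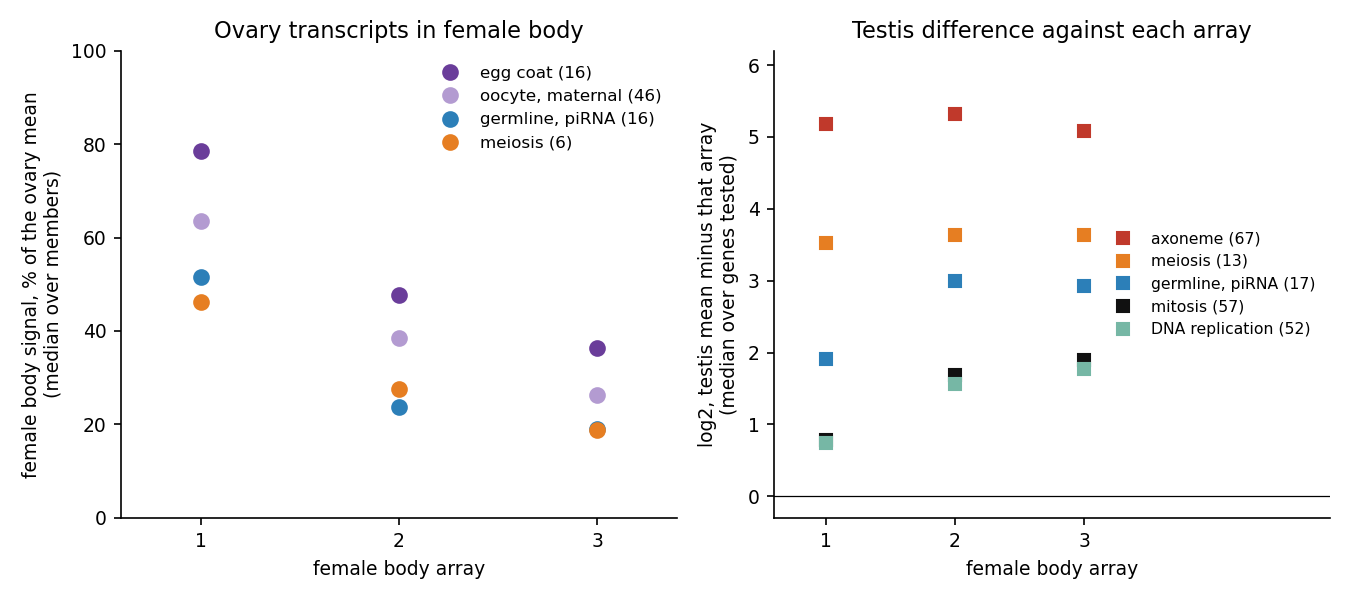
Left, median female body signal as a percentage of the ovary mean for members with an ovary mean of at least 200 (number in brackets), on each of the 3 female body arrays; right, median log2 difference between the testis mean and each female body array for 5 gene lists. Array 1 has the highest percentages on the left, and the lowest medians for germline, mitosis and DNA replication genes on the right.

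Further genes outside these lists led the comparison. One of them was si:ch73-111k22.3, with testis signals of 8567, 10495 and 8011 and female body signals of 9.1, 4.2 and 41.5 (257-fold with 2 of the 3 female body arrays set to the floor, adjusted p 1.3e-06 in limma). The uncharacterized zgc:162239 read 6752, 7380 and 6570 against at most 19.5, at least 215-fold. Female body was at the floor on all 3 arrays for hoatz, a ciliary and flagellar gene, at 4704, 6283 and 5195 (at least 167-fold), and for rab36, a small GTPase, at 4735, 4828 and 4952 (at least 151-fold). In all 4 genes, ovary and male body means were 54.5 or lower. The same class held si:ch73-103b9.2, at 3203, 2929 and 3311 (at least 98.2-fold), although a second probe set of this gene differed by only 0.68 on the log2 scale. The testis arrays were less even for si:ch211-209a2.2, at 3732, 7050 and 9125 against 34.9, 6.4 and 8.2 (189-fold with the values below 32 set to the floor).

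A different set of testis genes stayed high against a female body that was itself bright. The creatine kinase ckba read 13428, 15348 and 13747 in testis and 957.8, 1435 and 2422 in female body (9.48-fold, adjusted p 1.6e-04 in limma), and its second probe set differed by 2.36 on the log2 scale without being called. The chromatin protein gene hmgb1b was 8.51-fold higher, at 11101, 12508 and 11275 against 1278, 1624 and 1225. The histone variant gene h2az2b read 16296, 15279 and 15564 against 3969, 3446 and 2708 (4.71-fold), and mapre1a, which binds growing microtubule ends, 9952, 10501 and 9477 against 1855, 1191 and 1294 (7.02-fold). The groups did not overlap for any of these genes. The chromatin gene hmgb2b (5.70-fold), the coactivator gene sub1b (4.48-fold), the proteasome gene psmb7 (4.05-fold), zgc:55461 (4.21-fold) and si:ch211-222l21.1 (6.58-fold) completed the set of 10 with hsd11b2.

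On the other side, the genes lowest in testis included those of yolk and body organs and several with no role given here but high ovary signal. The vitellogenin gene vtg2, a yolk precursor made in the female liver, read 23631, 31932 and 38762 in female body and 35.7, 34.1 and 28 in testis, a 909-fold difference (adjusted p 1.3e-06 in limma). For vtg4 all testis values were below the floor and female body was at least 540-fold higher. The third, vtg3, was 225-fold higher in female body, and nots, a protease named nothepsin, 58-fold. The yolk list summed to 40683, 60358 and 95055 on female body arrays 1, 2 and 3, the reverse order of the egg coat list, which summed to 141445, 106608 and 89653. Ovary signal of the yolk list was low, at 220 to 386. The estrogen receptor esr1 was not called (log2 -1.23, SE 0.56).

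Of the 16 egg coat genes, 15 were lower in testis and none higher (median -5.87). Testis signals of zp2.6 were 50.4, 191.5 and 62 and female body signals 19647, 15873 and 16688 (206-fold, adjusted p 1.4e-05 in limma). For zp3a.2 they were 43.3, 55.4 and 33.3 against 11206, 8108 and 6545 (195-fold). The exception, zp3d.2, had testis signals of 518.7, 648.6 and 624.5 inside the female body range of 352.8 to 1488, with 13.3, 7.1 and 5 in male body. It was thus the only egg coat gene not called (log2 -0.31, SE 0.47, adjusted p 0.64 in limma). Other members had weaker signal in testis, where the list median was 84.8, 112 and 93.2 on arrays 1, 2 and 3.

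Of 48 oocyte and maternal genes, 34 were lower in testis, 6 higher and 8 not called (median -3.01). The oocyte linker histone h1m read 11089, 9299 and 5997 in female body and 6.9, 81.4 and 20.2 in testis (195-fold), and sall4 12678, 6542 and 2407 against 3.6, 39.6 and 5.8 (170-fold, log2 -7.41, with a second probe set at -2.84). In both genes the testis values below 32 were set to the floor for the fold. The translation repressor btg4 (97.2-fold), the pluripotency factor pou5f3 (log2 -5.94) and zar1 (log2 -5.45) belonged here too. The oocyte growth factor bmp15 fell by less, at 92.8, 91.6 and 100.6 in testis against 1525, 869.5 and 685 (10.2-fold). Between these lists, 5 genes with no role given here were among the 10 lowest in testis: si:dkey-229d11.5, zgc:165539, zgc:173770, zgc:173837 and zgc:173856 (log2 -8.15 to -7.89). Further probe sets of si:dkey-229d11.5, zgc:173837 and zgc:173856 were called lower too, with the smallest differences at -7.98, -7.31 and -6.97. Signals of si:dkey-229d11.5 were 4.2, 50.4 and 16.1 in testis and 12986, 10210 and 8864 in female body. All 5 had ovary means of 12126 or more and male body means of 32.4 or less. Members higher in testis included spdya, an activator of cyclin-dependent kinases, at 3158, 1960 and 2486 against 438.2, 225.8 and 126.8 (10.7-fold, adjusted p 5.5e-04 in limma), and rbm46, an RNA-binding protein, at 2047, 1837 and 1729 against 395.5, 129.9 and 146.6 (9.52-fold, log2 3.25, with a second probe set at 1.11). The other 4 were cpeb1a, eif4e1b, lrmp and mastl, and the calls of eif4e1b, lrmp and mastl were lost in 5 to 8 of 19 other settings.

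For 5 pairs of related genes the members moved in opposite directions. They were chosen after their values had been seen, and each value below is a difference between groups for one gene. Other pairs on the lists moved together: kifap3a and kifap3b, bub1ba and bub1bb, and prc1a and prc1b were all higher in testis. Related pairs were not counted over the lists, so these 5 are examples and not a share. The replication helicase subunit mcm6 read 1137, 768.1 and 1154 in testis and 24.8, 43.7 and 62.9 in female body (22.5-fold higher, adjusted p 4.4e-05 in limma), and mcm6l 175.6, 131.8 and 149.3 against 2005, 846.4 and 742.2 (7.14-fold lower). In ovary mcm6 did not exceed 18.6, while mcm6l had a mean of 3172. Of the survivin genes, which act at the spindle, birc5a was 7.39-fold higher, at 5901, 5425 and 5889 against 1043, 669.1 and 668.1, and birc5b 58.8-fold lower, at 62.5, 81 and 78.5 against 6834, 4184 and 2821. The groups did not overlap in any of these genes. The translation regulator cpeb1b was 16.8-fold lower and cpeb1a 2.93-fold higher, the latter with low signals (88 to 102.2 in testis, 11.3 to 33.9 in female body). The creatine kinase ckbb, at 1249, 1228 and 1101 against 7598, 8499 and 7275, was 6.53-fold lower, opposite to ckba. The dynein assembly pair spag1b and spag1a is given above. Related genes can share probe sequence, and the signal that a probe set takes from its partner was not measured here.

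**Figure D5:**
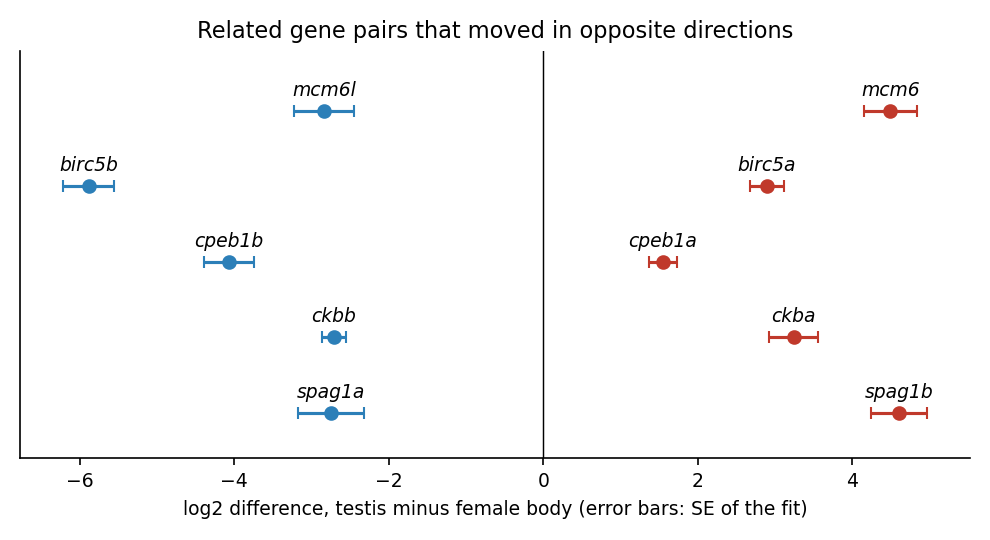
Log2 difference, testis minus female body, of 5 pairs of related genes from the limma fit on 3 arrays per group; error bars are standard errors, red points lie above 0 and blue points below. Each pair has a member on either side, from 4.60 for spag1b to -5.88 for birc5b.

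Body organ genes were mostly lower in testis. This held for 44 of 51 muscle genes (median -4.44), 46 of 60 liver genes (-3.98), 31 of 40 eye genes (-3.41), 20 of 27 intestine genes (-3.05), 29 of 36 skin genes (-2.42), 20 of 23 pancreas genes (-2.25) and 26 of 47 brain and nerve genes (-1.09). The gut chitinase chia.1 had female body signals of 10049, 14505 and 15007 and testis signals averaging 20.5 with an SD of 12.4 (n = 3). The difference was 396-fold with 2 of the 3 testis arrays set to the floor. The fast muscle troponin tnni2a.3 read 6888, 14241 and 17912 against 45.9, 41 and 60.2 (249-fold). Female body array 1 lay below the other 2 for some organ genes. The muscle light chain mylpfa read 16336, 23032 and 36263, against 89 to 243.9 in testis. The intestinal fatty acid carrier fabp2 read 2706, 3728 and 12353, against 13.1 to 37.2. The myelin gene mbpa read 1625, 2080 and 2751, against 19.5 to 57.1. None of these genes overlapped testis. Other organ genes did not share this order. The liver list median was 1757.5, 1718.6 and 1623.4 on female body arrays 1, 2 and 3, although its sum rose, at 249440, 274686 and 284006. The related chitinase gene chia.4 was also lower (53.3-fold), with an ovary mean of 8383 and a male body mean of 188, unlike chia.1, which had 12 and 16868. Among pancreas genes, testis array 1 was the highest of its group: the trypsin gene prss1 read 6102, 2493 and 2492 in testis against 10302, 11603 and 12730, and the insulin gene ins 5.1, 5.2 and 3.8 against 500.5, 795.5 and 211.4 (at least 13.7-fold). Digestive enzyme transcripts were thus visible in testis where ins was not. The second insulin gene, insb, was called higher in testis at low signal (means of 90.6 and 36.8), a call lost in 12 of 18 other settings. Testis array 1 was also the highest for other digestive enzymes. The chymotrypsin-like protease gene ctrl read 4207, 633.8 and 820.1 against 7570, 7451 and 6996 in female body. The carboxypeptidase cpa5 read 3041, 683.8 and 512.2 against 7010, 6014 and 6454. For both genes female body array 1 was the highest of its group.

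Some organ markers went the other way. Of the 47 brain and nerve genes 7 were higher in testis: pvalb6, nrgna, sypb, tubb5, gria2b, dpysl3 and scg5. The background share was 24.7% higher, so these 7 are not read as a feature of the list. The calls of gria2b and dpysl3 were lost in 9 of 18 and 5 of 19 other settings. The muscle gene myhz1.3 was the only one of its list called higher, a call lost in 8 of 18 other settings. The parvalbumin pvalb6, a calcium buffer listed with nerve genes, read 8341, 6712 and 6359 in testis and 65.5, 142.9 and 125.6 in female body (67.1-fold, adjusted p 6.9e-06 in limma). The calmodulin-binding gene nrgna was higher too, at 1543, 1857 and 3362 against 143.9, 311.7 and 276.3 (9.19-fold, adjusted p 4.5e-04). Ovary means of both were 44.3 or lower. Of the liver list, the bile acid gene cyp8b1.3 read 302.7, 1094 and 1353 in testis and 63.4, 114.8 and 192.9 in female body (log2 2.77, SE 0.63), below its male body mean of 5898. The antimicrobial peptide gene leap2 was the second (log2 2.05, SE 0.41). The apolipoprotein E genes parted: apoea was 219-fold lower in testis, at 33.7, 57.6 and 23 against 5000, 7670 and 16946, while apoeb, at 4683, 9154 and 11160 against 5600, 6977 and 6585, was not called (log2 0.30, SE 0.32). Of the skin list, the adhesion gene epcam was lower in testis (22.1-fold) with its highest mean, 13394, in ovary. The pigment enzyme genes tyr and dct were the 2 of the skin list that were higher (at least 2.35-fold and 2.09-fold), and their calls were lost in 6 of 18 and 10 of 19 other settings. Of the eye list, the blue cone opsin gene opn1sw2 was the exception, at 2819, 2824 and 3320 in testis against 977, 1733 and 1988 (1.99-fold), a call lost in 6 of 19 other settings. Few blood genes were called: of 27 tested, 2 were higher and 3 lower, with a median of 0.06 (-0.09 after quantile normalization). Those higher were the leukocyte actin regulator coro1a (log2 1.37, SE 0.33) and the globin hbae3 (log2 1.41, SE 0.24). Neither call held over the probe sets of its gene: a second probe set of coro1a was called lower (log2 -1.95), and that of hbae3 was not called (0.27). Of 8 heart genes, 3 were lower and none higher, led by the cardiac light chain myl7 (at least 30.4-fold).

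Few members of the ribosomal and respiratory lists were called, and many of the proteasome. Of 72 cytosolic ribosomal protein genes, 1 was called higher and none lower, with a median of -0.15. The one called was rps27l, at 4056, 5726 and 4762 against 1747, 1976 and 1389 (2.85-fold). After quantile normalization the median was 0.37 and 25 were called higher, so no direction is given for this list. Of 78 oxidative phosphorylation genes, 8 were higher and 10 lower (median -0.03, and 0.27 after quantile normalization). The 2 lowest were subunit genes of cytochrome c oxidase, cox4i1l (log2 -2.92, SE 0.52) and cox6b1 (-2.24, SE 0.32) with ovary means of 52.1 and 58.8. The higher ones were led by ndufb2 of complex I (log2 1.04, SE 0.27) and cox8a (1.02, SE 0.26). Without female body array 1, 25 were lower, and the median of the testis mean minus that array was 0.37, against -0.19 and -0.26 for arrays 2 and 3. Of 41 proteasome subunit genes, 30 were higher in testis and none lower (median 0.95, and 0.82 after centring each array on its median). They included psmb7, at 6149, 5688 and 6557 against 1711, 1436 and 1401, and psmd5 (log2 2.52, SE 0.26). The subunit gene psma8, whose mouse counterpart is required for meiosis in males, was bright in both groups. It was higher by less, at 4382, 4468 and 4777 against 2325, 2563 and 2515 (1.84-fold). The 5 immune-type catalytic subunits psmb8a, psmb9a, psmb10, psmb12 and psmb13a were not called, with log2 differences of -0.44 to 0.91.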

How the data were processed

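RNA was measured on 12 Affymetrix Zebrafish Genome arrays, 3 each of testis, male body, ovary and female body. The deposited intensity values are linear signals. The authors computed them in GCOS 1.2, and every array has a common trimmed mean (500.1 to 500.2, leaving out 2% of probe sets at either extreme). Perfect match and mismatch probes are combined, so weak signals are imprecise, and 3 arrays per group limit precision. Signals from other algorithms were not analysed here.

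Controls (115 of 15617 probe sets) were dropped. A floor of 32 was applied before taking log2. The 3 testis and 3 female body arrays were fitted with limma 3.58.1 in R 4.3.3 (lmFit, eBayes with an intensity trend), two-sided, with Benjamini-Hochberg adjustment over 14514 probe sets and a threshold of 0.05. Fold is 2 to the power of the log2 difference, and "at least" marks folds against a group that lies at the floor throughout. Where only some arrays of a group lay below 32, those values were set to 32 before the fold was taken. Each gene is represented by the probe set with its single symbol and the highest mean log2 signal. Lists can share genes: ccnb1, ccnb2 and fbxo5 are in the mitosis and oocyte lists, and fbxo43 in the meiosis and oocyte lists. Of the probe sets analysed, 10795 had 1 symbol, 135 had several and 4572 had none listed. Tests were checked on simulated data of 14514 probe sets, of which 100 were changed 4-fold and 100 others 2-fold. The 4-fold change was recovered in 64 of 100 and the 2-fold change in 9, with 4 false calls. In the real comparison 42.2% of probe sets were called. A smaller changed share makes the adjusted threshold stricter, so these rates do not give the recovery in the comparison itself.

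The comparison, the 23 gene lists and the rule for named genes were chosen with earlier results of these data known. The rule takes the 10 largest differences in each direction, the 10 brightest testis genes with female body at the floor, the 10 with the brightest female body among those at least 4-fold higher, and the extremes and exceptions of each list, and genes described with their list were added. Alternatives were other floors, a pseudocount, filters, scalings, a fit on all 12 arrays, array weights, a block for replicate number, the methods' t-test and leaving out each array. Python 3.11.15, pandas 2.3.3 and matplotlib 3.10.9 were used. Promoter motifs were not analysed here. Testis and female body came from different fish, and the main fit did not use replicate numbers as pairs.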

Additional observations from a re-analysis of the deposited data

How the results depend on the processing

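Of 3643 values recomputed for 193 named genes, at most 19 alternatives a gene, 3390 kept their side of the threshold, 198 lost significance, 55 gained it and 0 changed direction. A total of 112 genes kept their call throughout. The methods' t-test on linear signals, at the same adjusted threshold, called 1081 probe sets lower, and in lists it called fewer members, except for the ribosome: gonad soma 7 higher, egg coat 9, oocyte 10, yolk 1, muscle 16, intestine 5, brain 8, eye 13, skin 16, oxidative phosphorylation 3, blood 0 and heart 0 lower, and DNA replication 24 and ribosome 2 higher. On log2 signals the t-test called 25 replication and 2 ribosome genes higher, and 6 oxidative phosphorylation, 10 pancreas, 16 skin and 0 blood genes lower. Array weights gave 5454 probe sets higher and 4180 lower, with 31 oxidative phosphorylation, 10 blood and 6 heart genes lower and 2 ribosome genes higher. The fit on 12 arrays called 16 oxidative phosphorylation genes lower and 2 ribosome genes higher, a mean signal of at least 200 gave 2 ribosome genes, quantile normalization 25, and no filter 1 blood gene lower. The cause was not tested in any of these.

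Leaving out 1 array gave 2716 to 3762 probe sets higher and 1980 to 2979 lower. List counts that moved by over 1.5 times were oxidative phosphorylation 6 to 25 genes lower (25 without female body array 1, 6 without array 2), blood 0 to 5 lower (0 without testis array 1 or 3, 5 without female body array 1, 1 without array 2), heart 3 to 5 lower and ribosome 1 to 2 higher (5 and 2 without female body array 1). With replicate number as a block, 3599 probe sets were higher and 2624 lower. Same-numbered arrays deviated together with r of 0.15, 0.06 and 0.11, and each testis array correlated best with the female body array of its own number. Testis and female body came from different fish, so the numbers do not join tissues of the same fish. Whether arrays of the same number were handled together was not tested.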
